A study of Mus musculus with 8 samples.

Results

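Cystine import and glutathione synthesis were examined through 6 genes, the antiporter subunits Slc7a11 and Slc3a2, the glutamate-cysteine ligase subunits Gclc and Gclm, the glutathione synthase Gss and the glutathione reductase Gsr. The genes were taken by name from the 21631 protein-coding genes of the RefSeq table, and every deposited peak was kept whose summit lay in a gene span extended by 50 kb on each side. This gave 6 of the 469 peaks listed for Keap1-null cells and 0 of the 151 listed for Nrf2-null cells. The data are chromatin immunoprecipitation with sequencing (ChIP-seq) with an Nrf2 antibody on satellite cells, which are the resident stem cells of skeletal muscle, taken fresh from the hindlimb muscle of C57BL/6J mice. The 8 libraries form 4 groups of 2, namely Nrf2 ChIP and input from Keap1-null cells and Nrf2 ChIP and input from Nrf2-null cells. The labels do not state the age of the mice, the deleted parts of Keap1 and of the Nrf2 gene, any Cre driver and whether animals were pooled. Without a wild-type group, occupancy in cells that have both proteins is not measured. Peak lists carry no expression, so the labelled cell type could not be checked against its markers, and the total reads per library are unknown.

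Glutathione is the main small thiol of the cell. The cystine-glutamate antiporter brings in cystine, which is reduced to cysteine inside the cell. Glutamate-cysteine ligase joins cysteine to glutamate in the step that usually limits the rate, glutathione synthase adds glycine, and glutathione reductase returns oxidised glutathione to its reduced form with NADPH. Nrf2 is a transcription factor that, bound to a small Maf partner, activates genes of this pathway through antioxidant response elements. Keap1 is the adaptor protein that directs Nrf2 to degradation.

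The sequences around the transcription starts are shown because the peaks are placed against these starts below, and because the Gclm peak reaches into its own. RefSeq promoter windows of build GRCm38.p6, from 250 bases before to 50 bases after a start, were matched for 4 of the 6 genes, Slc7a11, Slc3a2, Gclm and Gss. Gclc and Gsr were not matched. Each window is written 5′ to 3′ along the gene, with capitals marking every match, on either strand, to TGANNNNGC, a loose form of the antioxidant response element that includes its core TGACNNNGC. The windows are chr3:50443564-50443863 on the minus strand for Slc7a11, chr19:8713848-8714147 on the minus strand for Slc3a2, chr3:122245307-122245606 on the plus strand for Gclm and chr2:155592761-155593060 on the minus strand for Gss.
Slc7a11: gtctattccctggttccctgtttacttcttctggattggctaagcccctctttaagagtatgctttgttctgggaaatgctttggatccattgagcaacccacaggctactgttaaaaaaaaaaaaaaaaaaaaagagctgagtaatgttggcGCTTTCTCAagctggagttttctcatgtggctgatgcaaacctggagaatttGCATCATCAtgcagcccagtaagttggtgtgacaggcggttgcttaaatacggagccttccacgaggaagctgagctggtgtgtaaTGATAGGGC
Slc3a2: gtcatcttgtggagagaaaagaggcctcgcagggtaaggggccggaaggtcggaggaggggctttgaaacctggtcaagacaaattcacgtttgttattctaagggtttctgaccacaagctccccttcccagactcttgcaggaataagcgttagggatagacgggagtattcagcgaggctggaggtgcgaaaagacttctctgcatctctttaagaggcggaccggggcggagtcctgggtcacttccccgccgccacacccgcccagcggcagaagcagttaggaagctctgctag
Gclm: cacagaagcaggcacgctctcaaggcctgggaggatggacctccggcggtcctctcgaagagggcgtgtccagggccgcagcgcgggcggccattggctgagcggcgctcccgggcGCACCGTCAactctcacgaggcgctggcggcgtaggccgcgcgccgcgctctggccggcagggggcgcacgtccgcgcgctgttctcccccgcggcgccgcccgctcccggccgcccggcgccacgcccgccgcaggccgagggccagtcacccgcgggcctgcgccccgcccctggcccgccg
Gss: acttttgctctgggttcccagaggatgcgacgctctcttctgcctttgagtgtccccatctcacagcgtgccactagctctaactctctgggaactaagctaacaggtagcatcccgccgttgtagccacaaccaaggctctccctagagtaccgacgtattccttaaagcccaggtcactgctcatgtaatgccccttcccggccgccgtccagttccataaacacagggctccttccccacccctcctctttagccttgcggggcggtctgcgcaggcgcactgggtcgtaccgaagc

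The core form TGACNNNGC was found in the Gclm window alone of these 4. The match lay on the minus strand at positions −134 to −126 relative to the start and reads TGACGGTGC. The Slc7a11 window held 3 matches to the loose form and 0 to the core, reading TGAGAAAGC, TGATGATGC and TGATAGGGC. The Slc3a2 and Gss windows held 0 matches to either form, which says only that these letters are not in these windows. Across all 21045 promoter windows of protein-coding genes, 12.98% held the core form and 41.7% the loose form. Of the 25 such windows that a peak of the Keap1-null list alone overlapped, Gclm's among them, 10 (40.0%) held the core form and 20 (80.0%) the loose form. A match counted in an overlapped window can lie outside the peak, as the Gclm core match does. The AP-1 motif TGANTCA was in 0 of the 4 windows, in 5 of the 25 overlapped windows (20.0%) and in 7.04% of all windows. TGANTCA followed by GC also fits TGANNNNGC, so the shares of these forms are not separate. The E-box CANNTG was in the Slc7a11 window alone of the 4, in 10 of the 25 (40.0%) and in 69.0% of all windows. The Slc7a11 window also held TGATGCAAA in both orientations, at −66 to −58 and at −48 to −40 relative to the start. These letters are known as an amino acid response element and were searched after the sequence had been seen. They were in 0 of the 25 overlapped windows and in 0.247% of all windows. The copy nearer to the start overlaps the match TGATGATGC.

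Of the 6 genes, 5 had a Keap1-null peak and all but Gss were among them. None of the 6 peaks shared 1 bp or more with an Nrf2-null peak, so all were Keap1-null-only peaks. The same held for 363 of all 469 Keap1-null peaks, so the lack of overlap does not set the 6 apart. For comparison, 3.31% of all protein-coding genes had a Keap1-null-only summit in the same window. The extended windows of the 6 genes were 116 kb (Slc3a2) to 234 kb (Slc7a11) long, and the median over protein-coding genes was 117 kb. With a margin of 10 kb the count was again 5 of 6, against 1.31% of all protein-coding genes. With the gene span alone it was 4 of 6, against 0.786%, since the Gclc summit lay outside the gene. The summits kept were inside the gene or at most 3.82 kb from it, and the nearest Keap1-null summit beyond the windows was 435 kb away, from Gclc. The genes were chosen with earlier results of these data known, so no test was made on the count. The irreproducible discovery rate (IDR) is given here in its global form. It is the share expected not to be reproducible among all peaks ranked at least as high in the pair of libraries. At an IDR of at most 0.01, only Slc7a11 and Gclc kept a peak, 2 of 6 genes against 1.78% of all protein-coding genes. Of the 6 sites 3 passed this limit, much like the 50.1% of all Keap1-null-only peaks that passed it.

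**Figure D1:**
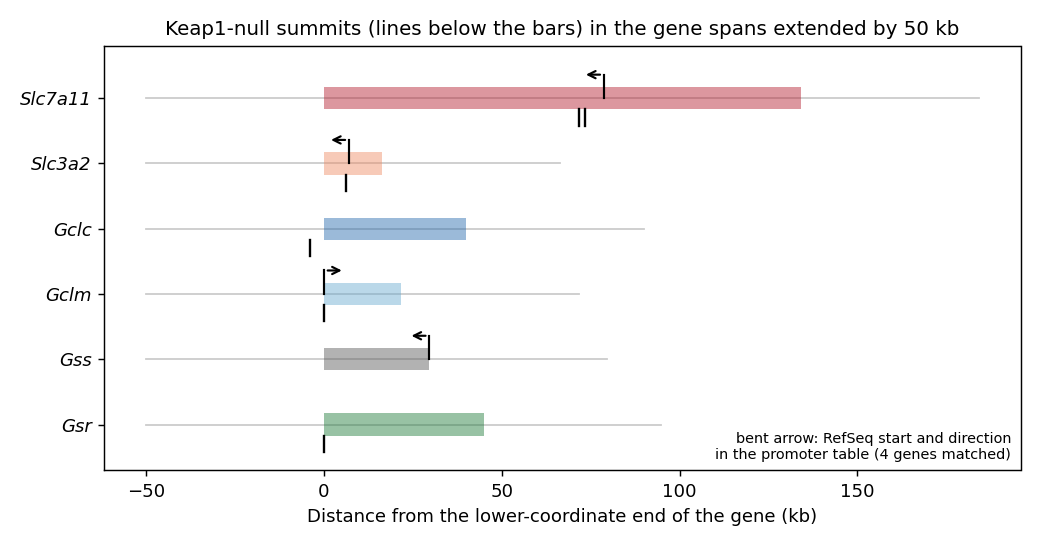
Positions of the 6 Keap1-null summits against the 6 genes, drawn to scale; the x axis is the distance in kb from the gene's lower-coordinate end, coloured bars are gene spans, grey lines the 50 kb margins, and bent arrows the starts matched in the promoter table. The Slc7a11 summits lie in the middle of the gene and downstream of its listed start, the Gclc summit lies outside the gene, and Gss has no summit.

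The antiporter subunits each had a peak downstream of a listed start. Slc7a11, the light chain that carries cystine in exchange for glutamate, spans chromosome 3, 50364936 to 50499087, and held 2 peaks. Its site 1 (50437879 to 50438536, 658 bp wide) reached −log10 p of enrichment of 63.2 in the first library and 47.4 in the second; its IDR was 1.24e-05. Its site 2 (50436500 to 50436833, 334 bp wide) reached 17.9 and 11.2, and its IDR was 0.00721. Site 1 thus stood above site 2 within each library.

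The Slc7a11 sites lay far from either end of the gene span, at 60.9 and 62.4 kb, but close to the start of the RefSeq promoter table. That start is position 50443613 on the minus strand, and the summits lay 5.38 and 6.95 kb downstream of it. The sites were separated by 1.57 kb between summits and by 1045 bp between peak edges. Of the 363 Keap1-null-only peaks, 13 (3.58%) had another such peak within 2 kb, the Slc7a11 sites included. No other gene of the table lay within 50 kb of these summits.

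Slc3a2, the heavy chain that carries the antiporter to the cell surface and also serves other amino acid transporters, spans chromosome 19, 8706882 to 8723369. Its peak (8712963 to 8713220, 258 bp wide) reached −log10 p of 11.8 in the first library and 7.54 in the second, and its IDR was 0.0291. The peak was thus among the weaker ones of the list in both libraries. Its summit lay inside the gene, 6.24 kb from the nearer end of the span but 780 bp downstream of the listed start at position 8713897. The region is dense: 6 protein-coding genes, Slc3a2 itself included, lay within 50 kb of the summit. Among them were the mRNA export factor gene Nxf1 and the ribosome assembly gene Wdr74, and nearness does not show which gene a site serves. No other protein-coding gene had a listed start closer to the summit. Of the 4 genes with a listed start, Slc3a2 and Gclm each had such a summit at most 1 kb from it, against 0.232% of the 17274 protein-coding genes with one.

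The ligase subunits differed in the position and in the strength of their peaks. Gclc, the catalytic subunit, spans chromosome 9, 77754535 to 77794489, and its peak (77750562 to 77750865, 304 bp wide) was the only 1 of the 6 outside a gene span, 3.82 kb from the lower-coordinate end. Its −log10 p was 31.2 in the first library and 18.4 in the second, and its IDR 0.00100. Gclm, the modifier subunit that raises the affinity of the enzyme for glutamate, spans chromosome 3, 122245487 to 122267215. Its peak (122245541 to 122245775, 235 bp wide) reached 8.07 and 11.1, and its IDR of 0.0496 was close to the largest IDR in the list, 0.0499.

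The value of the Gclc peak was above that of the Gclm peak within each library. The Gclm summit lay 85 bp downstream of the listed start, the closest of the 4 sites that could be placed against one. The peak covered the last 66 bases of the printed window and none of its capitals. It also overlapped a promoter window of Gm46822, which is not among the protein-coding genes. Dnttip2 was the other protein-coding gene within 50 kb of the summit, and nearness does not show which gene the site serves. The core match TGACGGTGC lay 110 bp outside the peak and 211 bp from the summit. The Gclm window was 79.7% G and C with 48 CpG dinucleotides, against 44.7% and 4 in the Slc7a11 window, 56.0% and 15 in the Slc3a2 window and 58.0% and 16 in the Gss window. The median over all windows was 56.7% G and C.

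Gss, which encodes the enzyme that adds glycine, had no peak in either list. The gene spans chromosome 2, 155563181 to 155592810, and its listed start is the upper end of the span. The nearest Keap1-null summit was 3458 kb away and the nearest Nrf2-null summit 12538 kb. The lists hold only peaks that passed in both libraries at an unknown depth, so weaker occupancy at Gss was not detectable here and is not shown to be absent.

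Gsr, which encodes glutathione reductase, had a weak peak at the edge of the gene. The gene spans chromosome 8, 33653238 to 33698162, and the peak (33653332 to 33653527) reached −log10 p of 8.99 in the first library and 7.77 in the second, at an IDR of 0.0402. The summit lay inside the gene, 165 bp from its lower-coordinate end. The protein-coding genes Ppp2cb and Ubxn8 also lay within 50 kb of the summit, and nearness does not show which gene the site serves. At 196 bp the peak was as narrow as the narrowest peak of the whole Keap1-null list.

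Ranked among the 469 Keap1-null peaks, the sites ran from near the top of the list to near its end. Slc7a11 site 1 ranked 14 in the first library and 11 in the second, and the Gclc peak 75 and 140. Slc7a11 site 2 ranked 230 and 288, close to the middle of the list. The remaining peaks were weak in at least 1 library, with Slc3a2 at ranks 366 and 425, Gsr at 449 and 411, and Gclm at 468 and 298. The order Slc7a11 site 1, Gclc, Slc7a11 site 2 was the same in both libraries. The peaks of Slc3a2, Gsr and Gclm stood in that order in the first library and in the opposite order in the second, so their relative strength is not settled by these values. The library values are not scaled for depth, and with 2 libraries joined in 1 list no test between sites was made.

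Gclm was the only 1 of the 6 sites with a higher value in the second library, the first minus the second being −2.99 in −log10 p. At the other 5 sites this difference was 1.22 (Gsr) to 15.8 (Slc7a11 site 1). Of all 363 Keap1-null-only peaks, 81.5% were higher in the first library. The columns do not give the bench named in the title of either library, so this difference could not be tied to a bench.

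**Figure D2:**
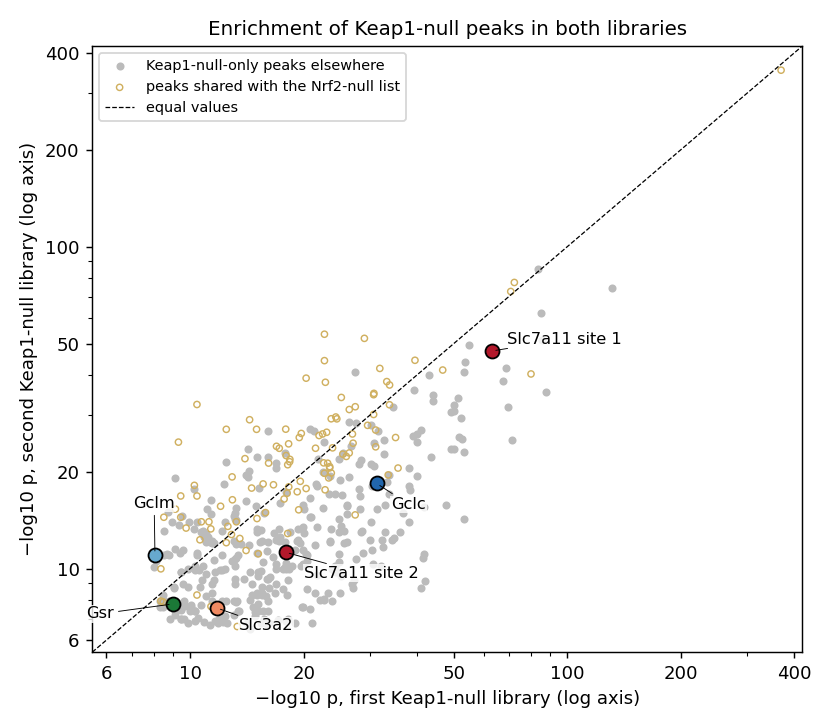
Deposited −log10 p of all 469 Keap1-null peaks in the first (x) and second (y) library, both on log axes, with the 6 sites as large coloured points, the Keap1-null-only peaks elsewhere in grey and peaks shared with the Nrf2-null list as open circles. Slc7a11 site 1 lies near the top of the list at 63.2 and 47.4, whereas Gsr, Slc3a2 and Gclm lie in its lower left part and Gclm alone of the 6 is above the dashed line of equal values.

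The 6 sites were mostly narrow, and both libraries placed their summits close together. Apart from Slc7a11 site 1, the peaks were 196 to 334 bp wide, whereas the median Keap1-null-only peak was 428 bp wide and 17.9% of those peaks were 334 bp or narrower. Summits called in the first and second library were 11 to 20 bp apart at the 6 sites, with a median of 12 bp. The median over Keap1-null-only peaks was 32 bp, and 35.3% of them had summits within 20 bp. The part covered in both libraries was 67.8% (Slc3a2) to 95.4% (Gsr) of the joined peak, against a median of 71.4% for Keap1-null-only peaks. These are descriptions of 6 sites, 2 of which belong to Slc7a11, and were not tested. Peak width limits how far apart the summits can lie, and peaks of like width were not compared.

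**Figure D3:**
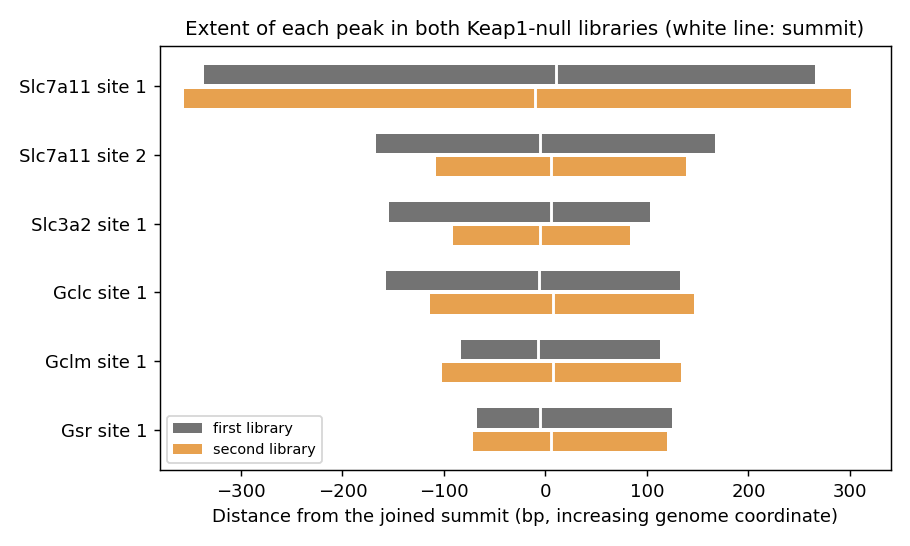
Extent of the 6 peaks in the first (grey) and second (orange) Keap1-null library, as distance in bp from the joined summit, with a white line at each library's own summit. Slc7a11 site 1 is the widest at 658 bp, and the white lines of both libraries lie 11 to 20 bp apart at every site.

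In cells labelled Nrf2-null, no peak was listed near any of the 6 genes. The nearest Nrf2-null summit was 1437 kb from Gsr, 2961 kb from Gclm, 10759 kb from Gclc, 30498 kb from Slc7a11 and 31785 kb from Slc3a2. Over all protein-coding genes, 0.693% had an Nrf2-null summit in the extended window, a share so low that 0 of 6 is no contrast on its own. The weakest values in the Nrf2-null list were 7.45 in its first and 8.59 in its second library. In the second Keap1-null library, Slc3a2 (7.54) and Gsr (7.77) lay below 8.59. No other value of the 6 sites lay below the weakest Nrf2-null value in the same position. The columns name no bench in either list, so matching positions across the lists has no basis. With the positions exchanged, only Gclm in the first Keap1-null library (8.07) lay below, against 8.59. Whether peaks as weak as these could have been listed for Nrf2-null cells was not tested. The −log10 p rises with depth, which is unknown. The part of depth in the missing Nrf2-null peaks was not tested.

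The Keap1-null-only peaks most like each gene's strongest site were found by the smallest summed difference of ranks over both libraries, among peaks outside the 6 windows. For Slc7a11 site 1 these were the peaks nearest to Txn1, which encodes thioredoxin, at −log10 p of 54.8 and 49.3, and to Txn2, which encodes mitochondrial thioredoxin, at 53.5 and 43.7, the latter 33.1 kb from the gene. For Gclc they were a peak inside Atp2b1, a calcium pump gene, at 30.7 and 18.8, and a peak 8.07 kb from Gal, the galanin gene, at 33.2 and 18.6. For Slc3a2 they lay inside Nckap5 and inside Crybg3, for Gclm inside Gm40363 and 12.5 kb from Copg1, and for Gsr 106 kb from Sgk1 and 16.9 kb from Asgr2. The likeness covers the values of 2 libraries only.

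Most other genes of glutathione metabolism had no peak nearby. Of 56 genes in 5 steps, 6 (10.7%) carried a Keap1-null-only summit in the span or within 50 kb of it. The share of all protein-coding genes was 3.31%. An Nrf2-null summit was near 0 of the 56, against 0.693% of all protein-coding genes, a share too low for 0 to be a contrast. Within 10 kb a Keap1-null-only summit was found for 2 of 56 (3.57%), namely Esd and Abcc1, against 1.31% of all protein-coding genes. Most of the 6 were therefore distant sites, and the count depends on the margin. No test was made on the list.

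Esd, which encodes the esterase that frees glutathione at the end of formaldehyde breakdown, held a peak 1.24 kb downstream of a listed start with −log10 p of 83.4 and 84.9, and was the 1 gene of 8 with a peak among the glyoxalase and other glutathione users. Abcc1, an exporter of glutathione and its conjugates, had 2 peaks outside the gene. They lay 8.67 and 10.5 kb away, at 19.9 and 15.8 and at 25.4 and 22.9. The exporter gene Abcc4 had a peak 42.9 kb away at 19.3 and 12.2, which made 2 of 8 transport genes within 50 kb. With a margin of 10 kb, Abcc1 alone of these 8 was left. Over all protein-coding genes the share within 50 kb was 3.31%, and counts in steps this small were not tested.

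Of 14 genes that supply cystine, cysteine or glutamate, Slc1a4, a neutral amino acid transporter, had a peak 25.4 kb away at 23.7 and 13.3. The other light chains that pair with Slc3a2, such as Slc7a5, had none within 50 kb. Of 13 peroxidase and glutaredoxin genes, Gpx6, a glutathione peroxidase, had a peak 43.1 kb away at 30.7 and 24.6, and Glrx5, a mitochondrial glutaredoxin, had a peak 49.0 kb away at 20.4 and 8.63. The turnover genes, which include the gamma-glutamyltransferases and Chac1, gave 0 of 13, a count that the share of 3.31% over all protein-coding genes does not set apart.

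**Figure D4:**
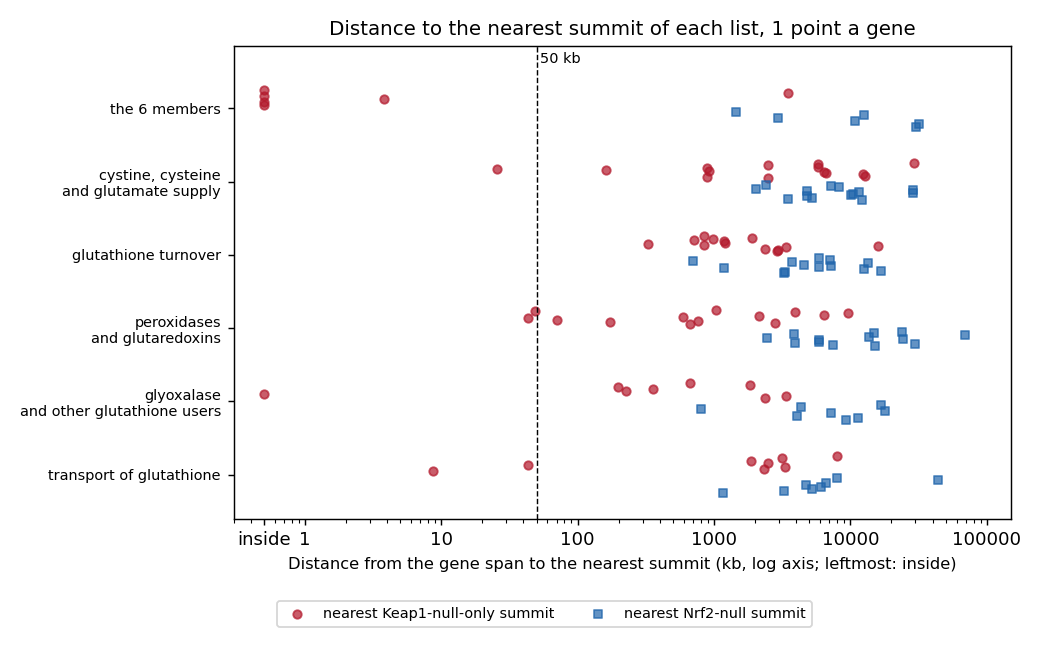
Distance in kb, on a log axis, from each gene span to the nearest Keap1-null-only summit (red circles) and the nearest Nrf2-null summit (blue squares), for the 6 genes and for 56 other glutathione genes by step; points at the far left have a summit inside the gene and the dashed line is at 50 kb. Of the 6 genes 4 have a summit inside the span and Gclc has a summit at 3.82 kb. To the right of the line lie 50 of the 56 other genes and all Nrf2-null summits. Left of it are 10.7% of the 56 for Keap1-null-only summits, against 3.31% of all protein-coding genes. For Nrf2-null summits the share of all protein-coding genes is only 0.693%.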

How the data were processed

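The authors deposited 2 peak lists, 1 per genotype, each made from the pair of Nrf2 ChIP libraries of the genotype in the column layout of the IDR procedure. Trim Galore 0.6.10, BWA 0.7.17, SAMtools 1.6, MACS2 2.2.7.1 and build mm10 are named per the submitters' processing notes; their settings and the use of the input libraries were not given in the sources used here. Values per peak are the deposited −log10 p of enrichment in either library, the deposited −log10 IDR and an IDR score. The fold and q columns of the authors' files hold only a placeholder. The p-values are not scaled for depth, which is unknown, so no interval could be given.

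Peaks sharing at least 1 bp with the other list were called shared. Summits were matched to RefSeq gene spans of GRCm38.p6 (mm10) extended by 50 kb, and coordinates are 1-based. Distances to starts used the 21045 promoter windows of 17274 protein-coding genes. Motifs were searched on both strands; mm10 genome sequence was not used, so peaks were not searched. The members, the lists of other glutathione genes, the motifs and the rule for named genes (the 6 genes, genes nearest to their summits, other glutathione genes with a summit within 50 kb, and the 2 most alike peaks per gene) were chosen with earlier results of these data known. Alternatives were other margins, an IDR of at most 0.01 and other overlap rules. The window search was tested on simulated data. The work was done in Python 3.11.15 with pandas 2.3.3, matplotlib 3.10.9 and numpy 2.4.6. The labels do not say whether the libraries of a group came from separate animals.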

Additional observations from a re-analysis of the deposited data

How the results depend on the processing

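The count of 5 genes with a Keap1-null-only summit was 4 with the gene span alone and 5 with margins of 10 and 100 kb. The other overlap rules could not change it, since the nearest Nrf2-null summit was 1482 kb from any of the 6 sites. At an IDR of at most 0.01 it was 2, with 3 summits in place of 6; fewer peaks follow from the limit itself. It was also 2 when a summit had to lie within 1 kb of a listed start, a setting chosen after seeing the data that could count only the 4 genes with such a start. Nrf2-null summits numbered 0 with the 100 kb margin, the only setting run that could have raised their count. The 6 other glutathione genes became 1 with the span alone and 2 with 10 kb. The share of all protein-coding genes, 3.31%, was 0.786%, 1.31% and 5.64% with the span alone, 10 kb and 100 kb, and 1.78% at the strict IDR, the last also added after seeing the data. No paired analysis was possible because the library columns name no bench. A list without either replicate could not be made, since a peak was kept only if both libraries had it. The depth is unknown, so a missing peak may be a weak one.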

Other observations

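The point of the gene from which a distance is measured changed the description of several sites. Measured from the nearer end of the gene span, the Slc3a2 summit was 6.24 kb away and Slc7a11 site 1 was 60.9 kb away, and measured from the listed RefSeq start they were 780 bp and 5.38 kb away. Over all 363 Keap1-null-only peaks, 10 summits, that of Slc3a2 included, lay within 1 kb of a listed start of a protein-coding gene and over 1 kb from any protein-coding gene end. The closest was at Txnrd1, which encodes cytosolic thioredoxin reductase, 79 bp from a listed start and 7.50 kb from a gene end, with −log10 p of 131 and 74.3. The next were at Pacsin2, 84 bp from a start and 16.6 kb from an end, and at Fetub, 113 bp and 1.73 kb. In the other direction, 13 summits lay within 1 kb of a gene end and not of a listed start. These peaks were chosen with their values in view, and the promoter table does not hold every gene.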
